A study of Mus musculus with 8 samples.

Results

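The 10 genes described here make and regulate the machinery that turns primary microRNA transcripts into mature microRNAs: Dicer1, Tarbp2, Prkra, Drosha, Dgcr8, Xpo5, Ran, Ddx5, Ddx17 and Tut4. They were taken as every probe set whose platform annotation gives exactly 1 symbol that is one of these names, which gave 10 of 18193 annotated genes and 35 of the 45101 probe sets on the array. Of the 35, 27 passed a filter on low values and were tested, and every one of the 10 genes kept at least 1. The 8 that stayed below the filter had mean levels from 1447737_at (Prkra), the dimmest, to 1436490_x_at (Ran), and the dimmest tested one was 1441545_at (Tut4).

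The cells were preadipocytes, the precursors of fat cells, isolated from the subcutaneous fat of day 2 newborn mice of the C57BL/6 background. All 8 samples carried the Dicer lox/lox genotype, and all were infected with an adenovirus, at 750 MOI and in 4 µg/mL polybrene. In the 4 control samples the virus was Ad5CMVeGFP, which encodes GFP. In the 4 Dicer knockout samples it was Ad5CMVCre-eGFP, which also encodes the Cre recombinase; the names of both vectors point to a CMV promoter, which is not specific to a cell type. RNA was taken 4 days after infection and each sample was hybridised to 1 Affymetrix array. No array of Cre-infected cells with intact Dicer alleles was analysed here, so an effect of Cre or of its virus cannot be told apart from one of Dicer loss. The labels number the samples of each group 1 to 4 as biological replicates and do not say whether these were separate animals or cultures, so the p-values reflect only how much these samples vary, which may be technical.

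MicroRNAs are cut out of longer transcripts in 2 steps. In the nucleus, the RNase III enzyme Drosha and its RNA-binding partner Dgcr8, which form the Microprocessor, release a hairpin, helped at some transcripts by the helicases Ddx5 and Ddx17. Exportin-5, the product of Xpo5, carries the hairpin to the cytoplasm together with the GTP-bound form of Ran, where Dicer, bound to Tarbp2 or to Prkra, removes the loop and leaves a short duplex. Tut4 adds uridines to the end of let-7 precursors. In precursors of fat and other mesenchymal cells, loss of Dicer is known to remove most mature microRNAs.

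The substrates of these enzymes are shown by 3 hairpins from the RefSeq table of mouse microRNAs (build GRCm38.p6), with both mature arms in capitals. The outer ends of the capitals lie about where Drosha cuts, their inner ends about where Dicer cuts, and the lower-case letters between them are the loop that Dicer removes. They were chosen because let-7 is the family Tut4 acts on and the regulator of Hmga2, whose message rose here, and because miR-21 is a well-known microRNA of mesenchymal cells.
Mirlet7g: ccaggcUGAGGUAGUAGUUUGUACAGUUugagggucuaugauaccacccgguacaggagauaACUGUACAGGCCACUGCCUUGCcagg
Mirlet7i: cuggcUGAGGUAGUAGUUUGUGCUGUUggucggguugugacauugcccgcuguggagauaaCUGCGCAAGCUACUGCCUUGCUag
Mir21a: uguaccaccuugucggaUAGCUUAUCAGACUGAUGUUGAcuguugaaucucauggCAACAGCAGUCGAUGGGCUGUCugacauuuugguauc

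Mirlet7g lies at chr9:106178840-106178927 on the plus strand, Mirlet7i at chr10:122985640-122985724 on the minus strand and Mir21a at chr11:86584067-86584158 on the minus strand. Both let-7 hairpins have 34 bases between their arms and Mir21a has 16. The letters that pair with target messages are the seed, bases 2 to 8 of the mature strand, shown in capitals in the guide strands.
mmu-let-7g-5p: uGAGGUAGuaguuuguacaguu
mmu-let-7i-5p: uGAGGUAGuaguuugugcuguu
mmu-miR-21a-5p: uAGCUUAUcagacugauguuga

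The seed of both let-7 strands is shared by 11 mature names in the table, among them the other let-7 members and mmu-miR-98-5p. Mature microRNAs were not measured by these arrays, so the results concern messenger RNAs only.

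Across the machinery, 0 of the 27 tested probe sets passed the threshold (limma, Benjamini-Hochberg adjusted p of 0.05 over all 27022 tested probe sets) in the unpaired fit, and 0 passed in the paired fit, which takes the replicate number as a block. The background was 0.0037% of tested probe sets called in the unpaired and 0.0481% in the paired fit. At an unadjusted limma p under 0.05 the members gave 1 call in each fit, Tarbp2, or 3.7% of members, beside 3.77% of all tested probe sets in the unpaired fit (2.08% higher and 1.69% lower in the knockout) and 9.14% in the paired fit. A log2 difference above 0, knockout minus control, was seen in 14 of the 27, or 51.9%, beside 51.3% of all tested probe sets. The median log2 difference was 0.0089 for the members and 0.0057 for all tested probe sets. The members' share was near the background for the unpaired p and for the direction, and below it for the paired p; none of these differences in share was tested. All differences are on the scale log2(signal + 73.1), which understates changes of dim probe sets.

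**Figure D1:**
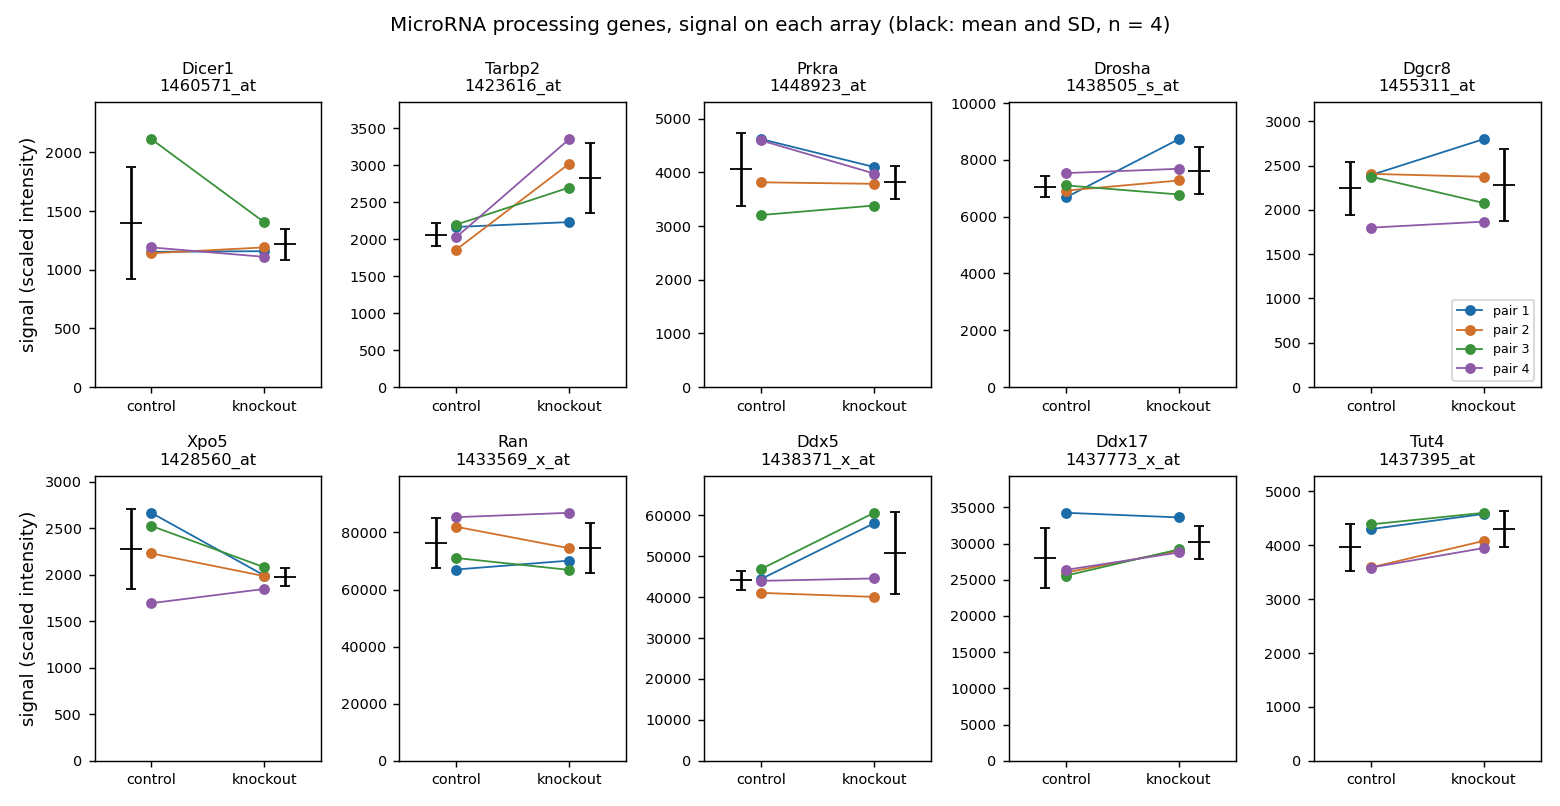
Signal (scaled array intensity, linear axes from 0) of the brightest probe set of each of the 10 genes on control and knockout arrays; coloured lines join samples with the same replicate number, and black bars give the mean and SD (n = 4). Tarbp2 is the gene whose knockout samples (2230.1 to 3352.4) all lie above its control samples (1856.4 to 2195.1).

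Dicer1, the floxed gene, did not pass the test at either of its probe sets. Its brighter probe set 1460571_at read 1152.7, 1140.7, 2113.7 and 1190.3 in controls 1 to 4 and 1158.3, 1190.4, 1403.8 and 1110.1 in knockouts 1 to 4. Control 3 was thus the highest array, its partner of the same number was next, and the groups overlapped. The fitted change was -9.82% with a 95% interval from -33% to 21.4% (log2 difference -0.15, SE 0.20, limma adjusted p = 0.999), and without control 3 the log2 difference was 0.06, in the opposite direction. Knockout was higher in 2 of 4 pairs.

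The dimmer Dicer1 probe set, 1427941_at, read 620.9, 889, 1045.1 and 391 in controls 1 to 4. In knockouts 1 to 4 it read 753.8, 563.8, 487.8 and 502.2. Here the controls spread over a wider range than the knockouts, which all lay inside it. Pairs 1 and 4 were higher in the knockout by 0.25 and 0.31 (log2), and pairs 2 and 3 lower, at -0.60 and -0.995. The 95% interval ran from -44% to 25% (log2 difference -0.26, SE 0.27, limma adjusted p = 0.999). No source used here places the 2 probe sets relative to the floxed segment. A probe set outside it reads whatever transcript remains and does not check the deletion.

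Tarbp2 encodes the double-stranded RNA binding protein that holds Dicer in the loading complex. Its brighter probe set 1423616_at read 2164.2, 1856.4, 2195.1 and 2024.2 in controls 1 to 4 and 2230.1, 3020.4, 2697.4 and 3352.4 in knockouts 1 to 4. The lowest knockout sample, number 1, was only just above the highest control, number 3, and the groups did not overlap; 2.46% of all tested probe sets had groups that did not overlap (1.4% higher and 1.06% lower in the knockout), and Tarbp2 was the 1 of 27 members (3.7%) to do so. The pairs differed in size, at 0.04, 0.68, 0.29 and 0.71 (log2) for pairs 1 to 4. The even-numbered pairs gave a mean of 0.69 and the odd-numbered pairs 0.17. The fitted change was 34.7% with a 95% interval from 8.42% to 67.4% (limma log2 difference 0.43, SE 0.14, unadjusted p = 0.0112, adjusted p = 0.999; paired SE 0.13, paired unadjusted p = 0.00575, paired adjusted p = 0.299). The exact two-sided permutation p was 0.0286, the smallest that 4 against 4 can give. It did not pass the adjusted threshold in any of the 24 alternative fits, whose log2 differences ran from 0.17 to 0.69.

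The other Tarbp2 probe set, 1438952_x_at, had a similar mean difference (log2 0.41, SE 0.34, limma adjusted p = 0.999) but a different pattern. It read 372.6, 565.5, 216.9 and 265.5 in controls 1 to 4 and 252.4, 373.6, 687.7 and 710.6 in knockouts 1 to 4. Knockout was higher in pairs 3 and 4 and lower in pairs 1 and 2, so that the groups overlapped. The suffix _x_at marks a probe set some of whose probes also match other transcripts. On both probe sets, knockout 4 was the highest of the 8 arrays.

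Prkra, the other double-stranded RNA binding partner of Dicer and an activator of the kinase PKR, differed by less than the spread between arrays at its bright probe set 1448923_at. It read 4620.6, 3814.6, 3204.9 and 4595.2 in controls and 4099.1, 3786.6, 3382.3 and 3978.4 in knockouts. Replicate 3 was the lowest array of both groups and replicate 1 the highest of both. The log2 difference was -0.08 (SE 0.14, limma adjusted p = 0.999), with a 95% interval from -23.1% to 16.9%. The other Prkra probe set, 1447737_at, was the dimmest of all 35, at 3.3 to 28.3 in controls and 11.4 to 99.4 in knockouts, and was not tested.

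The Microprocessor genes differed by less than the spread between arrays. Drosha, the nuclear ribonuclease, read 6674.5, 6916.6, 7100.3 and 7532.9 in controls and 8731.7, 7273.5, 6779.3 and 7684 in knockouts at 1438505_s_at. Knockout 1 was the highest array and the other 7 lay within 6674.5 to 7684. The log2 difference was 0.10 (SE 0.11, limma adjusted p = 0.999) with a 95% interval from -8.83% to 26.8%. The next Drosha probe set, 1428656_at, read 2617.7 to 2798.9 in knockouts and 2145.4 to 3128.9 in controls, so the knockouts lay inside the control range (log2 difference -0.04, SE 0.14). Another, 1438440_at, was below the filter at 30.5 to 177.7.

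Dgcr8, the RNA-binding subunit that recognises the base of the primary hairpin, was tested by 2 probe sets that cite the same source sequence. At 1455311_at it read 2391.4, 2406.5, 2376.6 and 1799.5 in controls and 2799.4, 2373.6, 2077 and 1867.5 in knockouts. Replicate 4 was the lowest of both groups and knockout 1 the highest array (log2 difference 0.02, SE 0.16, limma adjusted p = 0.999, 95% interval from -20.1% to 28%). At 1435439_at the range was 1226.6 to 1609.9 in controls and 1556.5 to 1710.7 in knockouts (log2 difference 0.11, SE 0.14). Among the 2 untested Dgcr8 probe sets, 1446169_at read 43.5, 14.4, 38.4 and 64.4 in controls and 40.8, 190.2, 148.4 and 175.9 in knockouts. Knockouts 2 to 4 were above every control there and knockout 1 was not, all at levels under the filter, so the values are given without a test. The other untested one, 1422981_at, overlapped, at 30.3 to 157.9 in controls and 35 to 207 in knockouts.

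The Dgcr8 message is itself known to be cut by the Microprocessor at hairpins near its start. One annotated microRNA, Mir1306, lies within the span of Dgcr8 and on the same strand in the RefSeq tables (GRCm38.p6), at chr16:18284239-18284317 on the minus strand. Its mature strands, with seeds in capitals, are shown because they come from within a member gene.
mmu-miR-1306-5p: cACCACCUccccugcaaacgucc
mmu-miR-1306-3p: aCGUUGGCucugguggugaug

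Ddx5 and Ddx17 encode closely related DEAD-box helicases that join the Microprocessor and also act in transcription and splicing. Their messages were bright at most probe sets, with 6 tested probe sets for Ddx5 and 2 for Ddx17. Of the Ddx5 ones, 1433810_x_at was dimmer, at 1471.5 to 2276.3 (log2 difference -0.08, SE 0.15), as was 1433809_at, at 386.5 to 960.3 (-0.05, SE 0.25). The 6 of Ddx5 did not move together: 2 had a log2 difference above 0 and 4 below, from -0.13 to 0.19. The brightest, 1438371_x_at, read 44403.3, 41033.9, 46832.8 and 43962 in controls and 58038, 40042.6, 60588.1 and 44555.1 in knockouts (log2 difference 0.19, SE 0.13, limma adjusted p = 0.999). Knockouts 1 and 3 were the highest arrays, and knockouts 2 and 4 lay among or below the controls. The log2 difference was 0.378 in odd-numbered and -0.00796 in even-numbered pairs.

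The next Ddx5 probe set, 1419653_a_at, was lower in the knockout in 4 of 4 pairs, which held for 8.25% of all tested probe sets, with pair differences from -0.19 to -0.04. It read 32693, 27384.8, 35298.2 and 28404.3 in controls and 31739.3, 25009.8, 31027.2 and 25261.2 in knockouts (log2 difference -0.13, SE 0.12, paired SE 0.07, limma paired adjusted p = 0.612). Another, 1454793_x_at, was higher in 4 of 4 pairs, which held for 8.62% of all tested probe sets (log2 difference 0.12, SE 0.12, paired SE 0.07, limma paired adjusted p = 0.657). The suffix _a_at marks a probe set whose probes match several transcripts of the same gene, so these probe sets need not measure the same mixture of transcripts.

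Because 2 probe sets of a gene went opposite ways, a measure chosen after seeing this was added: the log2 ratio of a gene's brightest to its next tested probe set on each array. For Ddx5 this ratio was 0.44, 0.58, 0.41 and 0.63 in controls 1 to 4 and 0.87, 0.68, 0.96 and 0.82 in knockouts 1 to 4. Every knockout lay above every control, with a difference of 0.493 in odd-numbered and 0.142 in even-numbered pairs. Over all pairs the difference was 0.32 (SE 0.12; limma adjusted p over the 5899 genes with such a ratio, 0.9996). Since Ddx5 prompted the measure, its separation restates that observation and supports nothing further.

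Ddx17 gave the same direction with smaller steps. Its brightest probe set, 1437773_x_at, read 34244.1, 25996.8, 25567.5 and 26362.8 in controls and 33605.4, 29028.5, 29200.1 and 28768.2 in knockouts (log2 difference 0.11, SE 0.11). Replicate 1 stood above the other 3 in both groups. The next, 1452155_a_at, read 10671.8 to 14238.8 in controls and 10884.5 to 13236.3 in knockouts (log2 difference -0.04, SE 0.12). Replicate 1 was the highest of both groups there too, and no longer stood apart in the ratio of the 2 probe sets. The log2 ratio was 1.262, 1.279, 1.155 and 1.164 in controls and 1.339, 1.344, 1.387 and 1.396 in knockouts, without overlap.

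For Ddx17 the ratio differed by 0.15 (SE 0.11, limma adjusted p = 0.9996). The SD between arrays of a group was 0.06 in controls and 0.03 in knockouts, and the fit's error also draws on the spread of the other genes. Of the other 8 members with at least 2 tested probe sets, Ddx17 alone had groups that did not overlap in this ratio; the background was 2.32% of 5899 genes (8.02% by odd against even number). The members' values were known when the ratio was chosen, so this count is a description. Over all 5899 ratios 0 passed the adjusted threshold in either limma fit, with 4.2% at an unadjusted p under 0.05 in the unpaired and 5.93% in the paired fit. In both genes the brighter probe set is of the _x_at kind, whose probes can read other transcripts, and how far each probe set reads the other helicase was not tested.

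**Figure D2:**
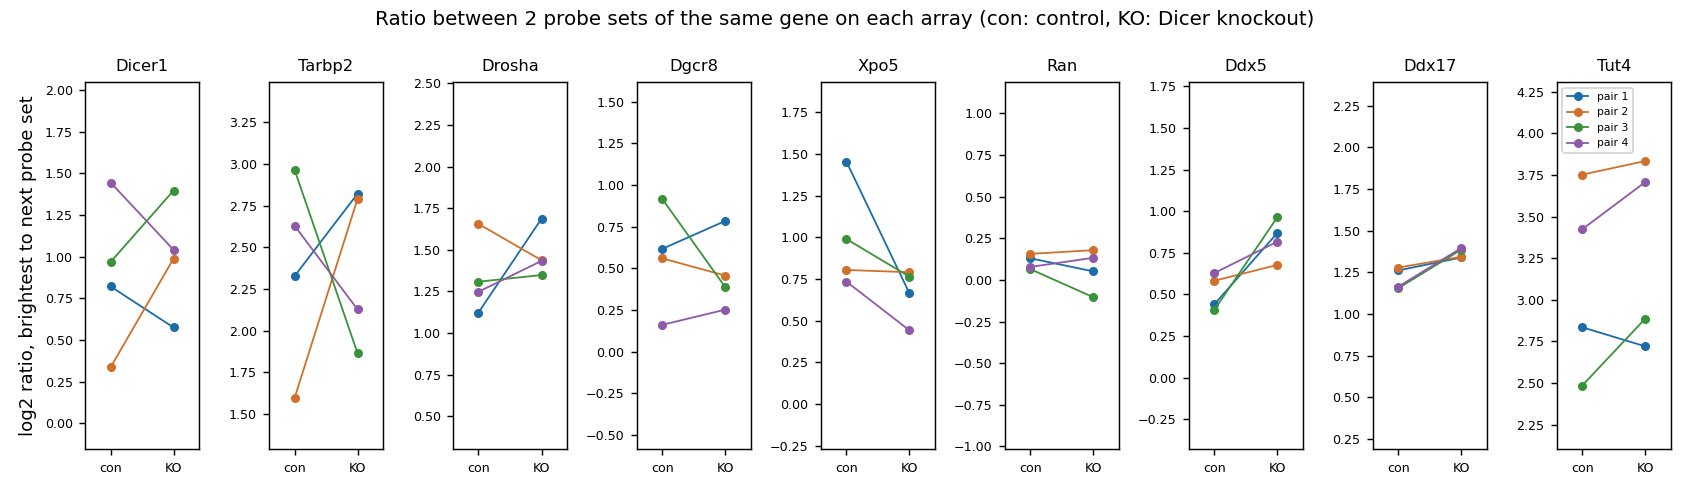
Log2 ratio of the brightest to the next tested probe set of each of the 9 genes that have both, on each array; lines join samples of the same replicate number, and every panel spans the same height in log2 units. The Ddx5 and Ddx17 lines all rise, by 0.10 to 0.56 and by 0.06 to 0.23, the Xpo5 lines all fall, and the Tarbp2 lines cross. How many of all 5899 gene ratios move one way in 4 of 4 pairs was not counted.

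Xpo5, the export receptor for precursor hairpins, had probe sets on both sides of 0. At 1428560_at it read 2664, 2228.1, 2523.6 and 1693.3 in controls and 1990.2, 1983.6, 2078.2 and 1846.4 in knockouts. The knockouts lay closer together than the controls and within their range. The log2 difference was -0.18 (SE 0.15, limma adjusted p = 0.999), with a 95% interval from -29.7% to 10.9%. At 1451468_s_at controls read 925.2 to 1244.5 and knockouts 1115.5 to 1339.8 (log2 difference 0.15, SE 0.15). The ratio of the 2 was lower in the knockout in 4 of 4 pairs, by -0.79 to -0.01. The share of all genes whose ratio agreed in this way was not counted. For Xpo5 the groups overlapped in the ratio (difference -0.33, SE 0.18, limma adjusted p = 0.9996).

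Ran, the small GTPase whose GTP-bound form loads exportins with cargo, was the most tightly placed member around 0. Its 5 tested probe sets had log2 differences from -0.03 to 0.04, with 4 above 0. The brightest, 1433569_x_at, read 67012.5, 81983.7, 71037.7 and 85335.7 in controls and 70121.8, 74454, 66880.4 and 86871.9 in knockouts (log2 difference -0.03, SE 0.11, limma adjusted p = 0.999). The even-numbered arrays of both groups were the high ones, 74454 to 86871.9 against 66880.4 to 71037.7. Its 95% interval ran from -17.3% to 15.5%. The probe set without a suffix for shared sequence, 1460551_at, gave -15.2% to 20.4%. Under median centring 3 of the 4 positive differences turned negative, and each of the 5 changed sign without some single array. Of the 5, 4 are of the _x_at kind, whose probes may read copies of the gene, so their values are uncertain.

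Tut4, the terminal uridylyltransferase, read 4298.8, 3587.7, 4387 and 3584.9 in controls and 4581.7, 4081.3, 4602.3 and 3949.1 in knockouts at its brightest probe set, 1437395_at. Knockout was higher in 4 of 4 pairs, by 0.07 to 0.18, which held for 8.62% of all tested probe sets. Among the members, 4 of 27 (14.8%) had 4 of 4 pairs in one direction, beside 16.9% of all tested probe sets. The groups of 1437395_at overlapped because odd-numbered arrays of both groups stood above even-numbered ones. The log2 difference was 0.12, with an unpaired SE of 0.12 and a paired SE of 0.09 (limma paired adjusted p = 0.738). The other 2 tested probe sets gave log2 differences of -0.04 (SE 0.39) and -0.28 (SE 0.47), with the widest intervals of all members.

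The spread behind those wide intervals followed the replicate number and not the group. At 1439631_at the odd-numbered arrays read 539.5 and 723.2 in controls and 633 and 558.8 in knockouts. The even-numbered ones read 198.7 and 267.8 in controls and 218.4 and 234.9 in knockouts. On the scale with the pseudocount added to each signal, odd-numbered samples were 2.26-fold higher, without overlap. At 1441545_at the ranges were 411.1 to 718.3 and 99.8 to 266.8, a 2.52-fold difference on the same scale. The untested 1441359_at read 283.1 to 461.4 in odd-numbered and 40.7 to 91.9 in even-numbered arrays, again without overlap, while the fifth probe set, 1456668_at, overlapped.

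**Figure D3:**
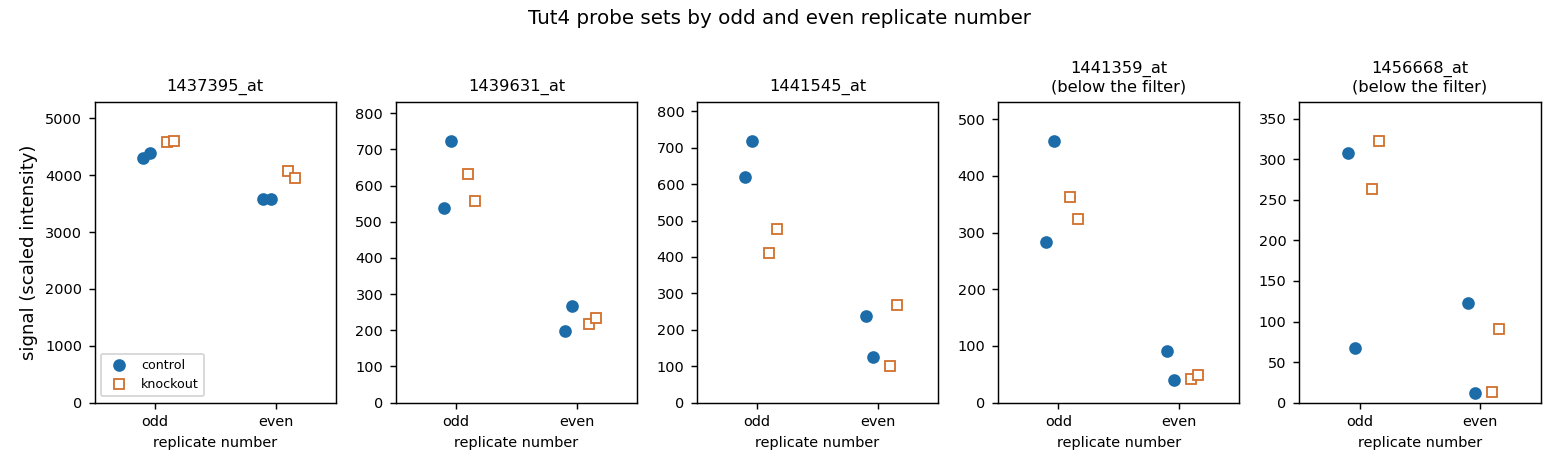
Signal (scaled intensity, linear axes from 0) of the 5 Tut4 probe sets in odd-numbered (1 and 3) and even-numbered (2 and 4) replicates; circles are control and open squares knockout samples. Odd-numbered samples of both groups lie above even-numbered ones at 4 of the 5 probe sets. The differences are 1.17-fold at the brightest and 2.26-fold to 3.36-fold at 3 dimmer ones. These folds were taken after a constant, the pseudocount, was added to each signal. They understate the differences in the plotted signal of the dim probe sets.

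This split by replicate number was noticed in the data, and the meaning of a replicate number is not in the labels. Among the tested members 5 of 27 (18.5%) read higher in all odd-numbered than in all even-numbered arrays, beside 6.93% of all tested probe sets. They were the 3 of Tut4 and 1419653_a_at and 1454793_x_at of Ddx5. Another, 1433569_x_at of Ran, was lower in all odd-numbered arrays, as were 5.25% of all tested probe sets (12.2% in either direction). Values that moved with the split were the 18S ribosomal RNA 5′ control probe set, at 5905.9 to 14007.2 in odd-numbered and 30583.9 to 43029.9 in even-numbered arrays. The Gapdh control probe sets also separated, at 46484 to 52568 in odd-numbered and 57155 to 63196 in even-numbered arrays at the 5′ end, and 46889 to 54087 and 57093 to 60407 at the 3′ end. The ratio of 3′ to 5′ signal of Gapdh, a measure of RNA integrity, was 0.986 to 1.13 in odd-numbered and 0.956 to 0.999 in even-numbered arrays, and that of beta-actin 1.66 to 2.06 and 1.78 to 1.93. Other control probe sets separated less. The 18S 3′ one overlapped, at 3228 to 5520 in odd-numbered and 5433 to 8812 in even-numbered arrays. The beta-actin 3′ one separated only just, at 97649 to 107585 and 107632 to 113993, and its 5′ one overlapped. The part of these controls and ratios in the Tut4 split was not tested. The split crosses the groups evenly, and with odd or even number as a term in the limma fit 0 of 27 members passed.

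**Figure D4:**
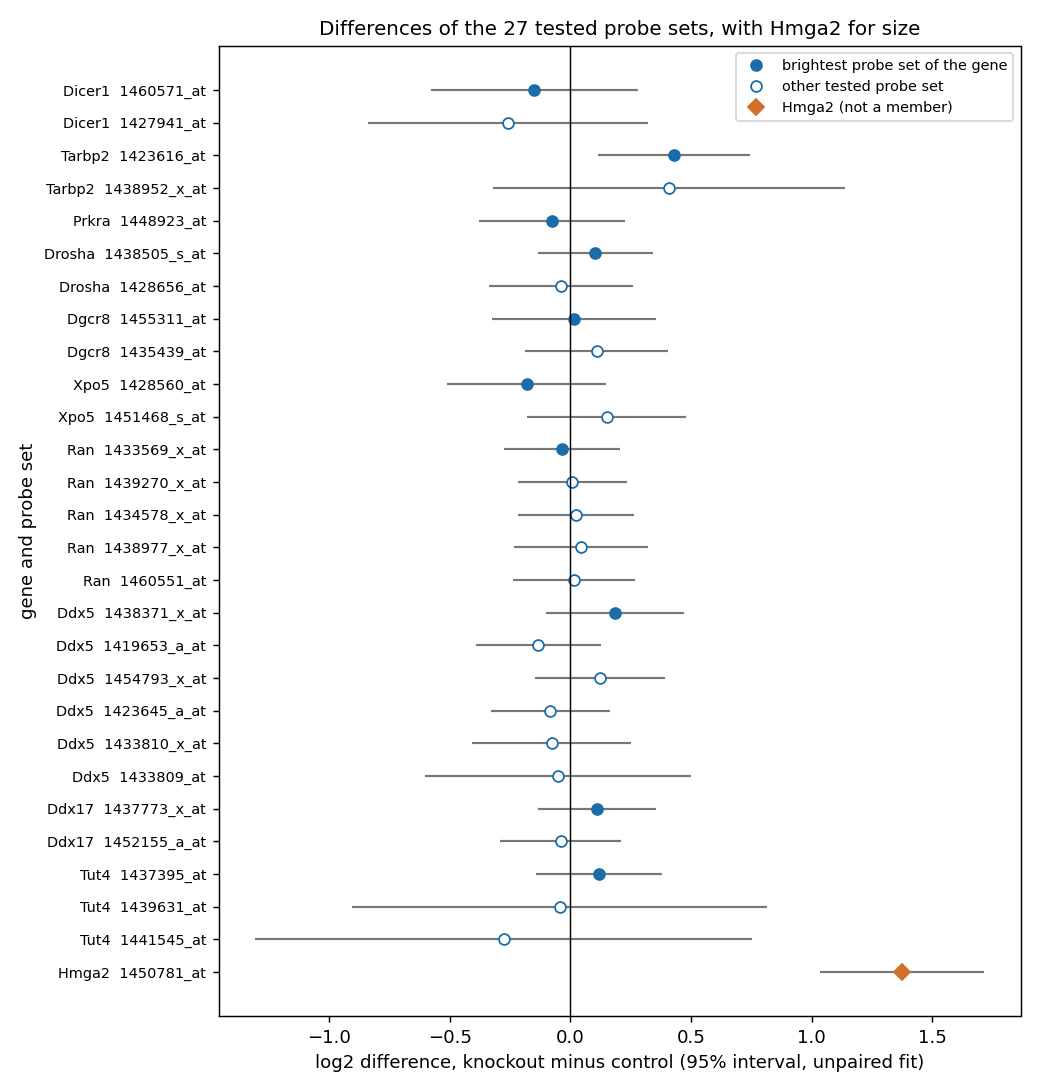
Log2 difference, knockout minus control, with the 95% interval of the unpaired limma fit for the 27 tested probe sets of the 10 genes, filled where the probe set is the gene's brightest, and for 1 probe set of Hmga2. The intervals of 26 of the 27 include 0, that of Tarbp2 1423616_at does not, and Hmga2 lies at 1.37.

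Hmga2, a let-7 target chosen as a yardstick with its call already known, was the 1 probe set past the unpaired threshold. Its probe set 1450781_at read 2274.8 to 3755.2 in controls and 7250.8 to 8671.9 in knockouts, without overlap. The 95% interval of its log2 difference ran from 1.03 to 1.71 around 1.37 (limma adjusted p = 0.0335). The other 2 tested Hmga2 probe sets had smaller log2 differences and did not pass the unpaired threshold: the brightest, 1450780_s_at, had 1.06 (SE 0.16, limma adjusted p = 0.283, paired adjusted p = 0.0336) without overlap. The groups overlapped at 1422851_at, with 0.86 (SE 0.23, limma adjusted p = 0.999) and pair 1 lower in the knockout. Over all probe sets the number past the threshold was 0 without control 2, control 3 or any 1 knockout array, and 2 without control 1. The largest absolute difference among the 27 tested members was 0.43, at Tarbp2. The median absolute difference of the 10 genes at their brightest probe set was 0.116, and it was 0.116 over all 13256 genes tested. The members' median SD between arrays of a group was 0.19 on the log2 scale, beside 0.27 for all tested probe sets.

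Of the other factors known to act on microRNA precursors, such as the cap-binding proteins, Khsrp, Dis3l2 and Mettl3, 21 of 27 listed genes were tested and 0 passed in either limma fit, with 0 at an unadjusted p under 0.05 in either. Over all 13256 genes tested, each by its brightest probe set, 0 passed in the unpaired and 10 in the paired fit, with 521 at an unadjusted p under 0.05 in the unpaired one. The 21 tested factors had a median log2 difference of 0.02, with 14 above 0, beside a median of -0.002 and 49.6% above 0 over all genes tested. The closest to a difference were Tut7, the relative of Tut4 with the same activity, at 4012 ± 283 in controls and 4522 ± 692 in knockouts (SD, n = 4; log2 difference 0.16, SE 0.13), and Hnrnpa1, which remodels some primary hairpins, at -0.12 (SE 0.10). Lin28a and Lin28b, which repress let-7 maturation, were below the filter on low values, as was Trim71.

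Genes of the Ran cycle and of nuclear export gave 0 calls in either limma fit among 16 tested of 17 listed, with 1 at an unadjusted p under 0.05 in the unpaired and 2 in the paired fit, and a median log2 difference of 0.01 (9 above 0). The 1 in the unpaired fit was Rcc1, the factor that charges Ran with GTP, at 2023 ± 210 in controls and 1620 ± 132 in knockouts (SD, n = 4; log2 difference -0.31, SE 0.13, limma adjusted p = 0.999, paired adjusted p = 0.432). Nxf1, the main export receptor of messenger RNA, joined it in the paired fit, with a log2 difference of -0.28 (SE 0.14, limma paired unadjusted p = 0.049, paired adjusted p = 0.546). The unadjusted threshold was met by 3.93% of all genes tested in the unpaired fit. In the paired fit it was met by 9.14% of all tested probe sets.

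Other DEAD-box helicases gave 0 calls in either limma fit among 23 tested of 25 listed, with 0 at an unadjusted p under 0.05 in the unpaired and 1 in the paired fit, and a median log2 difference of -0.02 (10 above 0). The 1 in the paired fit was Eif4a2, a translation initiation helicase outside the naming rule and named after its value was seen, at -0.22 (paired SE 0.08, limma paired unadjusted p = 0.0197, paired adjusted p = 0.432). Ddx49 and Ddx3x, helicases of ribosome production and of translation, had the smallest p in the unpaired fit, at -0.26 (SE 0.15) and 0.14 (SE 0.10). Other double-stranded RNA binding proteins gave 0 calls in either limma fit among 13 tested of 14 listed, with 1 at an unadjusted p under 0.05 in each fit and a median of -0.04 (5 above 0). In each fit that 1 was Ifih1, which senses double-stranded RNA in the cytoplasm, at 4891 ± 690 in controls and 7347 ± 1669 in knockouts (SD, n = 4; log2 difference 0.56, SE 0.16, limma adjusted p = 0.999, paired adjusted p = 0.0925). Adarb1, an RNA editing enzyme, had a log2 difference of 0.32 (SE 0.27). Adar, Dhx9 and Zfr were tested on both this list and that of the other microRNA factors. The unadjusted counts of this list and of the helicases have the same background as those of the Ran cycle. It was 3.93% of all genes tested in the unpaired fit and 9.14% of all tested probe sets in the paired fit.

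Median signals of the 8 arrays ran from 321.1 to 418.9. No array was a copy of another: the highest correlation of any array with another was 0.968 to 0.973. Markers of the labelled cell type were bright. All 10 annotated of 11 preadipocyte and fibroblast markers were tested, with a summed signal of 490472 to 568036 in controls and 481524 to 547792 in knockouts. Of the 10, Dlk1 was lower in the paired fit (limma paired adjusted p = 0.0436). Markers of macrophages and leukocytes summed to 2569 to 3579 in controls and 2492 to 3181 in knockouts (6 of 6 annotated, 4 tested; Ptprc and Itgam below the filter), and of endothelium to 1542 to 2300 and 1540 to 2126 (4 of 4 annotated, 2 tested; Pecam1 and Cdh5 below the filter). Mature adipocyte markers summed to 2221 to 4109 and 2018 to 6368 (3 of 5 annotated, 1 tested, Fabp4; Adipoq and Lep below the filter), keratinocyte markers to 2684 to 3179 and 2274 to 2477 (1 of 4 tested, Krt10; Krt5, Krt14 and Krt1 below the filter), and skeletal muscle markers to 1521 to 3032 and 2425 to 3107 (3 of 4 tested; Myog below the filter). The keratinocyte sums did not overlap between groups, but the markers differed in direction: Krt10 read 2285 ± 256 in controls and 1750 ± 100 in knockouts, and the untested Krt5 148.5 ± 102 and 305 ± 51.6 (SD, n = 4). Of the muscle markers, Acta1 read 508 ± 114 and 761 ± 106 and Myod1 298 ± 174 and 426 ± 34.9 (SD, n = 4). Des was flat, at 1597 ± 482 and 1587 ± 318. Fabp4 read 3143 ± 795 and 4999 ± 2085, and Cd68 1343 ± 429 and 1007 ± 270. Of the 4 tested macrophage and leukocyte markers, 2 had a log2 difference above 0 and 2 below. Krt10, Acta1, Myod1, Des, Fabp4 and Cd68 each had an unpaired limma adjusted p of 0.999. The part of these markers in the Tarbp2 difference was not tested. In such bulk samples, fewer cells of a type and less RNA per cell cannot be told apart. The number of arrays limits the precision of every value above.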

How the data were processed

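The labels put 4 samples in the control and 4 in the Dicer knockout group. Per the submitters' processing notes, the authors used GCOS 1.3 and MAS5. They deposited one linear intensity for each probe set, and its 2% trimmed mean came to 1500 on every array; no further step is named in the sources used here. In the platform annotation, 34945 probe sets carry 1 symbol, 932 carry several and 9160 carry none, and 64 array controls were left out.

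Before log2, 73.1 was added to each signal, the level below which 20% of the deposited values lie. The 60% of probe sets with the highest mean log2 value (27022) were fitted two-sided in limma 3.58.1 (R 4.3.3) by lmFit and eBayes, with a trend of the variance on the mean. Each gene's brightest tested probe set stood for it (13256 genes). The added ratios of 5899 genes were fitted without the trend. Figures were drawn with matplotlib 3.10.9 in Python 3.11.15. Fits were tested on simulated data with changes of 0.5, 1 and 2 (log2). The unpaired fit called 0%, 40.3% and 90.9% of them, and the paired fit 7.46%, 41.8% and 93.9%. False calls were 0 in the unpaired and 3 in the paired fit. With 40.3% and 41.8% of changes of 1 called, the lack of calls among members does not show that changes of 1 or less were absent. Alternatives changed the pseudocount, filter, normalization, trend, array weights, replicate block, odd or even numbers, or left out arrays.

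The deviations of same-numbered arrays of both groups correlated at 0.189 to 0.373, and those of different numbers at -0.347 to 0.149, so the labels' numbers were taken as pairs. The 10 genes and the gene lists were chosen with earlier results of these data known. All members are named, with Hmga2, and of each list the genes past the threshold in either fit or otherwise the 2 with the lowest p in the unpaired fit.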

Additional observations from a re-analysis of the deposited data

Results flagged for a closer look

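Single arrays stood far from the other 3 of their group in 5 of the 70 groups of 4 examined (35 probe sets in both groups), where chance flags about 1 in 20. Control 3 was high for Dicer1 1460571_at, at 2113.7 against 1140.7 to 1190.3, a gap of 0.932 of the group's range on the log2 scale. Control 4 was low for Dgcr8 1455311_at, at 1799.5 against 2376.6 to 2406.5 (gap 0.957). At Ddx17 1437773_x_at the array numbered 1 was high in both groups, at 34244.1 against 25567.5 to 26362.8 in controls (gap 0.895) and 33605.4 against 28768.2 to 29200.1 in knockouts (gap 0.904). Knockout 3 was high for the untested Drosha 1438440_at, at 177.7 against 30.5 to 44.4 (gap 0.858).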

How the results depend on the processing

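The count of member probe sets past the adjusted threshold was 0 in all 24 alternative limma fits, and so was each of the 4 gene lists' counts; at an unadjusted p under 0.05 the members gave 1 to 3. Over all probe sets the count was 1, and 13 with the replicate block, that is with paired samples; the block changed no call of a member. It was 0 with median centring, with all probe sets kept whatever their level, without the mean-variance trend, and in odd- or even-numbered replicates alone. It ran from 0 to 2 when 1 array was left out (0 without control 2 or 3 or any 1 knockout array), and with the block it was 80 without pair 1, 1 without pair 2, 0 without pair 3 and 2 without pair 4. Of 645 values of the 27 tested member probe sets, 583 kept their direction, 62 reversed, and 12 probe sets never reversed. The cause of the reversals was not tested.

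Dicer1 1460571_at ranged from -0.226 to 0.0572 (log2 difference) when 1 array was left out, the reversal being without control 3. Median centring reversed Dgcr8 1455311_at (-0.00987) and, for Ran, 1439270_x_at (-0.0172), 1434578_x_at (-0.00226) and 1460551_at (-0.0106). Array weights reversed Drosha 1428656_at (0.0457), Ddx17 1452155_a_at (0.00459), Tut4 1439631_at (0.0888) and, for Ran, 1439270_x_at (-0.0332), 1434578_x_at (-0.0348), 1438977_x_at (-0.0241) and 1460551_at (-0.0377). Even-numbered replicates alone reversed Drosha 1428656_at (0.0665), Ddx5 1438371_x_at (-0.00796) and 1423645_a_at (0.00827), and, for Ran, 1439270_x_at (-0.0951), 1434578_x_at (-0.0693), 1438977_x_at (-0.129) and 1460551_at (-0.0632). Odd-numbered replicates alone reversed Ddx5 1433809_at (0.212).

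With the block and pair 1 left out, reversals were Drosha 1428656_at (0.00901), Dgcr8 1455311_at (-0.052) and, for Ran, 1439270_x_at (-0.0361), 1434578_x_at (-0.0622), 1438977_x_at (-0.0496) and 1460551_at (-0.0997). Without pair 2 it was Ran 1433569_x_at (0.00139). Without pair 3 they were Ran 1439270_x_at (-0.0153), Ddx5 1433810_x_at (0.0556) and Tut4 1439631_at (0.0532), and without pair 4 Drosha 1428656_at (0.0016) and Ddx5 1433809_at (0.102).

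When 1 array was left out, values that reversed ranged from -0.154 to 0.0222 for Drosha 1428656_at and from -0.085 to 0.104 for Dgcr8 1455311_at. For Ran they ranged from -0.109 to 0.0222 (1433569_x_at), -0.0588 to 0.0746 (1439270_x_at), -0.0482 to 0.0853 (1434578_x_at), -0.0359 to 0.133 (1438977_x_at) and -0.0482 to 0.087 (1460551_at). For the helicases they ranged from -0.192 to 0.00935 (Ddx5 1433810_x_at), -0.281 to 0.109 (Ddx5 1433809_at) and -0.102 to 0.0444 (Ddx17 1452155_a_at), and for Tut4 from -0.298 to 0.219 (1439631_at) and -0.649 to 0.0681 (1441545_at).

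The added log2 ratio of probe sets kept its direction in all 24 alternatives for Ddx5 (0.142 to 0.493) and Ddx17 (0.125 to 0.18). It reversed for Tarbp2 with a pseudocount of 16 (-0.0231), in odd-numbered replicates (-0.304) and, with the block, without pair 1 (-0.136) or 2 (-0.37). Other reversals were Drosha (-0.0164) and Ran (0.0385) in even-numbered replicates, and with the block Dicer1 without pair 2 (-0.0739) and Dgcr8 without pair 3 (0.0519). With 1 array left out the ratio ranged from -0.0778 to 0.292 for Dicer1, -0.24 to 0.217 for Tarbp2, -0.227 to 0.0238 for Dgcr8, -0.0806 to 0.0136 for Ran and -0.0498 to 0.372 for Tut4. The odd or even term and the ratio were chosen after seeing the data.

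With 4 arrays a group, the 95% interval of Dicer1 ran from a 33% fall to a 21.4% rise. Dim probe sets are compressed by the pseudocount, and with the upper 40% of probe sets kept Tarbp2 1438952_x_at and Tut4 1439631_at and 1441545_at gave no value.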
